A study of Mus musculus with 92 samples.

Results

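The genes of iron and heme recycling were Hmox1, Blvrb, Fth1, Ftl1, Tfrc, Slc40a1, Slc11a1, Cp and Hp, taken by symbol from the deposited table of gene expression. These 9 genes matched 9 of the 23811 rows, and all 9 were among the 12099 rows that reached a mean of at least 1 FPKM (fragments per kilobase of transcript, scaled to the mapped fragments of the library) in at least 1 group. Polyadenylated RNA, enriched from total RNA, was sequenced from the tibialis anterior (TA) of male C57BL/6J mice, 10 weeks old, whose left TA had been frozen with a steel probe cooled on dry ice. The unfrozen right TA of the same mouse was the control at every time, so the control muscles also came from injured animals, and no muscle of an uninjured mouse was among these libraries. Muscles were taken 3, 10, 24, 48 and 72 h and 7, 14, 21 and 28 d after injury, with 5 injured and 5 control muscles at 10 h, 24 h, 72 h, 14 d and 28 d. There were 2 injured and 3 control muscles at 3 h, 3 and 4 at 48 h, 3 and 4 at 7 d, and 4 and 3 at 21 d. Animals are named by their number within a time, and the labels give no other link between times.

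Heme reaches a damaged muscle from the myoglobin of broken fibers and from the hemoglobin of extravasated red cells. Haptoglobin (Hp) binds free hemoglobin, heme oxygenase 1 (Hmox1) opens the heme ring and frees its iron, and biliverdin reductase B (Blvrb) reduces flavins and some biliverdin isomers. Iron is stored in ferritin shells built of heavy (Fth1) and light (Ftl1) chains, is exported by ferroportin (Slc40a1), is oxidized by ceruloplasmin (Cp) for loading onto transferrin, and is taken up through the transferrin receptor (Tfrc). Slc11a1 (NRAMP1) moves divalent metals out of the phagosomes of macrophages and neutrophils. When iron is scarce in a cell, the iron regulatory proteins bind a hairpin in some of these transcripts, the iron-responsive element, which blocks translation when it lies in the 5′ untranslated region and protects the transcript from decay when it lies in the 3′ untranslated region.

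The hairpins are shown because they separate the members whose mRNA can respond to iron through these proteins from those that lack such a hairpin. Transcripts were searched on their sense strand for a C, 5 bases, the loop CAGTGN and 5 bases pairing with the first 5, in the mm9 genome with GENCODE annotation. Of the 9 members, 4 held it in an untranslated region. Each element is given as 29 bases, 5′ to 3′ in the sense of the transcript, with the 6-base loop in capitals. Fth1 held 1 copy in the 5′ UTR in exon 1 (chr19:10057222-10057250, plus strand), Ftl1 held 1 in the 5′ UTR in exon 1 (chr7:52715149-52715177, minus strand) and Slc40a1 held 1 in the 5′ UTR in exon 1 (chr1:45982310-45982338, minus strand). Tfrc held 4 in the 3′ UTR in exon 19 on the plus strand (chr16:32631305-32631333, chr16:32631684-32631712, chr16:32631749-32631777 and chr16:32631796-32631824).
Fth1: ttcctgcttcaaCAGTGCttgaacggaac
Ftl1: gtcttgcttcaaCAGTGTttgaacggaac
Slc40a1: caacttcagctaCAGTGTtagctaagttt
Tfrc a: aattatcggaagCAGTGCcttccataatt
Tfrc b: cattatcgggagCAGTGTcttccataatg
Tfrc c: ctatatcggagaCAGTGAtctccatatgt
Tfrc d: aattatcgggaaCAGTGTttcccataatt
The pattern was present in 279 of 22611 annotated gene symbols (1.23%), in a 5′ UTR in 33 (0.146%) and in a 3′ UTR in 124 (0.548%). A match is a description of the letters, and no match in Hmox1, Blvrb, Slc11a1, Cp or Hp says only that these letters were not found in their annotated transcripts.

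The libraries summed to between 287291 and 828110 FPKM, and 5611 to 11572 genes were above 1 FPKM in a library. Acta1, skeletal actin, the muscle fiber gene used to check the tissue, had a median of 9064 FPKM in injured and 11410 FPKM in control muscle, although it was listed at 0 in 5 libraries. The median difference over all 12099 genes was not at 0. On the log2(FPKM + 0.1) scale, injured minus control, its value from 3 h to 28 d was -0.28, 0.20, 0.29, 0.63, 1.01, 0.31, 0.17, 0.03 and -0.02, and each member's difference is to be read against it.

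Some libraries stood apart. At 24 h animal 03 had an A and a B library of each leg, and the B libraries of the injured and control leg correlated most with each other (Pearson's r over genes 0.969), less with the A library of their own leg (0.911 and 0.913). Hmox1 was at 22.6 and 43.5 FPKM in the A and B libraries of this injured leg and at 2.06 and 39.2 FPKM in those of its control leg, so that the B libraries did not separate the legs. The A and B values were averaged per leg, and values from the A libraries alone are given beside the 24 h log2 differences of the members other than Blvrb. At 7 d animal 02 held 6149 FPKM of Fth1 in injured and 6303 FPKM in control muscle, while the other 7 d libraries held 984 to 1198 FPKM, and the 7 d results of the members are given with and without this animal. At 14 d the injured muscles of animals 01 and 02 had summed levels of 10 macrophage marker genes of 6.80 and 9.11 FPKM, within the control range of 5.93 to 10.8 FPKM, while animals 03, 04 and 05 had 115, 92.4 and 90.0 FPKM.

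Of the 9 members, Hmox1, Hp, Ftl1, Slc11a1 and Blvrb were called higher in injured muscle at several times, Cp at 72 h, and Fth1, Tfrc and Slc40a1 were not called at any time. A call needed an adjusted p below 0.05 together with a difference of 2-fold or more. At 3 h 2 members were called higher (Hmox1 and Hp), when 1.69% of all genes tested were. At 10 h 4 were called (Hmox1, Hp, Ftl1 and Slc11a1), against 11.8% of all genes. At 24 h 3 were called (Hmox1, Ftl1 and Slc11a1), against 17.6%, and at 48 h 5 were called, those of 10 h and Blvrb, against 33.1%. At 72 h 6 were called, Cp being the added one, but 50.2% of all genes were also called higher. At 7 d 5 were called, the same as at 48 h, against 21.6%. Without animal 02 only Ftl1 and Slc11a1 were called at 7 d, against 1045 of 12099 genes. With each time fitted alone 0 members were called at 7 d, against 95 of 12099 genes. In bulk muscle, fewer cells of a type and less RNA per cell cannot be told apart, which holds for every member.

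Hp, the hemoglobin scavenger, had the largest difference of the members at 3 h. At 3 h Hp was at 5.31 and 30.5 FPKM in the injured muscles of animals 11 and 12, against 0.178, 0.0974 and 0.237 FPKM in the control muscles of animals 10, 11 and 12. The groups did not overlap, and the log2 difference was 5.60 ± 1.32 (SE, limma adjusted p = 0.00741), a call that was lost without the injured muscle of animal 12 (adjusted p = 0.319). At 10 h Hp was at 79.0, 33.5, 25.6, 25.8 and 11.4 FPKM in injured muscles of animals 01 to 05, against 6.10, 2.74, 0.752, 1.65 and 1.84 FPKM in control muscles, and the lowest injured value lay above the highest control value. The log2 difference at 10 h was 3.72 ± 0.92 (adjusted p = 0.00159).

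The spread of Hp between animals was wide. At 48 h the injured muscles of animals 01, 04 and 05 held 63.7, 175 and 5.32 FPKM, against 0.175 to 1.60 FPKM in 4 control muscles, a log2 difference of 6.12 ± 1.11 (adjusted p = 4.87e-06). At 72 h Hp was at 12.6 to 24.3 FPKM in injured and 0.252 to 2.47 FPKM in control muscle, with a log2 difference of 4.0 ± 0.92 (adjusted p = 9.62e-05). Injured muscle exceeded every control muscle at both times. At 24 h the groups overlapped, with 5.29 to 37.8 FPKM in injured and 0.567 to 9.11 FPKM in control muscle, and the log2 difference of 2.23 had an adjusted p of 0.0509, which fell to 0.0245 with the animal as a replicate block and to 0.0159 with the A libraries of animal 03 alone (log2 difference 2.68). It was also called without control 01, control 02 or injured 03 (adjusted p = 0.0458, 0.0256 and 0.0344). At 7 d animal 02 held 61.5 FPKM of Hp in injured muscle and animals 03 and 04 held 5.03 and 2.80 FPKM, against 0.564, 3.94, 0.0546 and 0.985 FPKM in controls 02 to 05. The 7 d call (log2 difference 3.57, adjusted p = 0.00941) was lost without animal 02 (2.13, adjusted p = 0.329) and without the control of animal 04 (2.77, adjusted p = 0.0701).

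Hp is made mainly by the liver and is also stored in neutrophil granules. The liver markers were at or near 0, with Ttr and Fgb at 0 in every library and a highest sum over 8 liver genes of 1.98 FPKM. The 9 neutrophil markers with 1 locus summed to 56.4 to 248 FPKM in injured and 1.17 to 2.19 FPKM in control muscle at 3 h, 63.5 to 1459 and 0.936 to 7.62 FPKM at 10 h, 61.2 to 552 and 0.835 to 30.3 FPKM at 48 h, and 58.3 to 143 and 1.11 to 19.6 FPKM at 72 h. Of the 8 that were tested, 5, 8, 5, 5 and 5 were called higher at 3, 10, 24, 48 and 72 h, against 1.69%, 11.8%, 17.6%, 33.1% and 50.2% of all genes. Their median log2 difference was 3.11, 3.91, 4.28, 3.13 and 2.80 at these times. Mpo and Elane, granule genes of immature neutrophils, were at 0 in 22 and 27 of 37 injured and in 30 and 33 of 39 control muscles, although Elane was among those called at 10 h. Whether the neutrophil content had a part in the Hp levels was not tested.

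**Figure D1:**
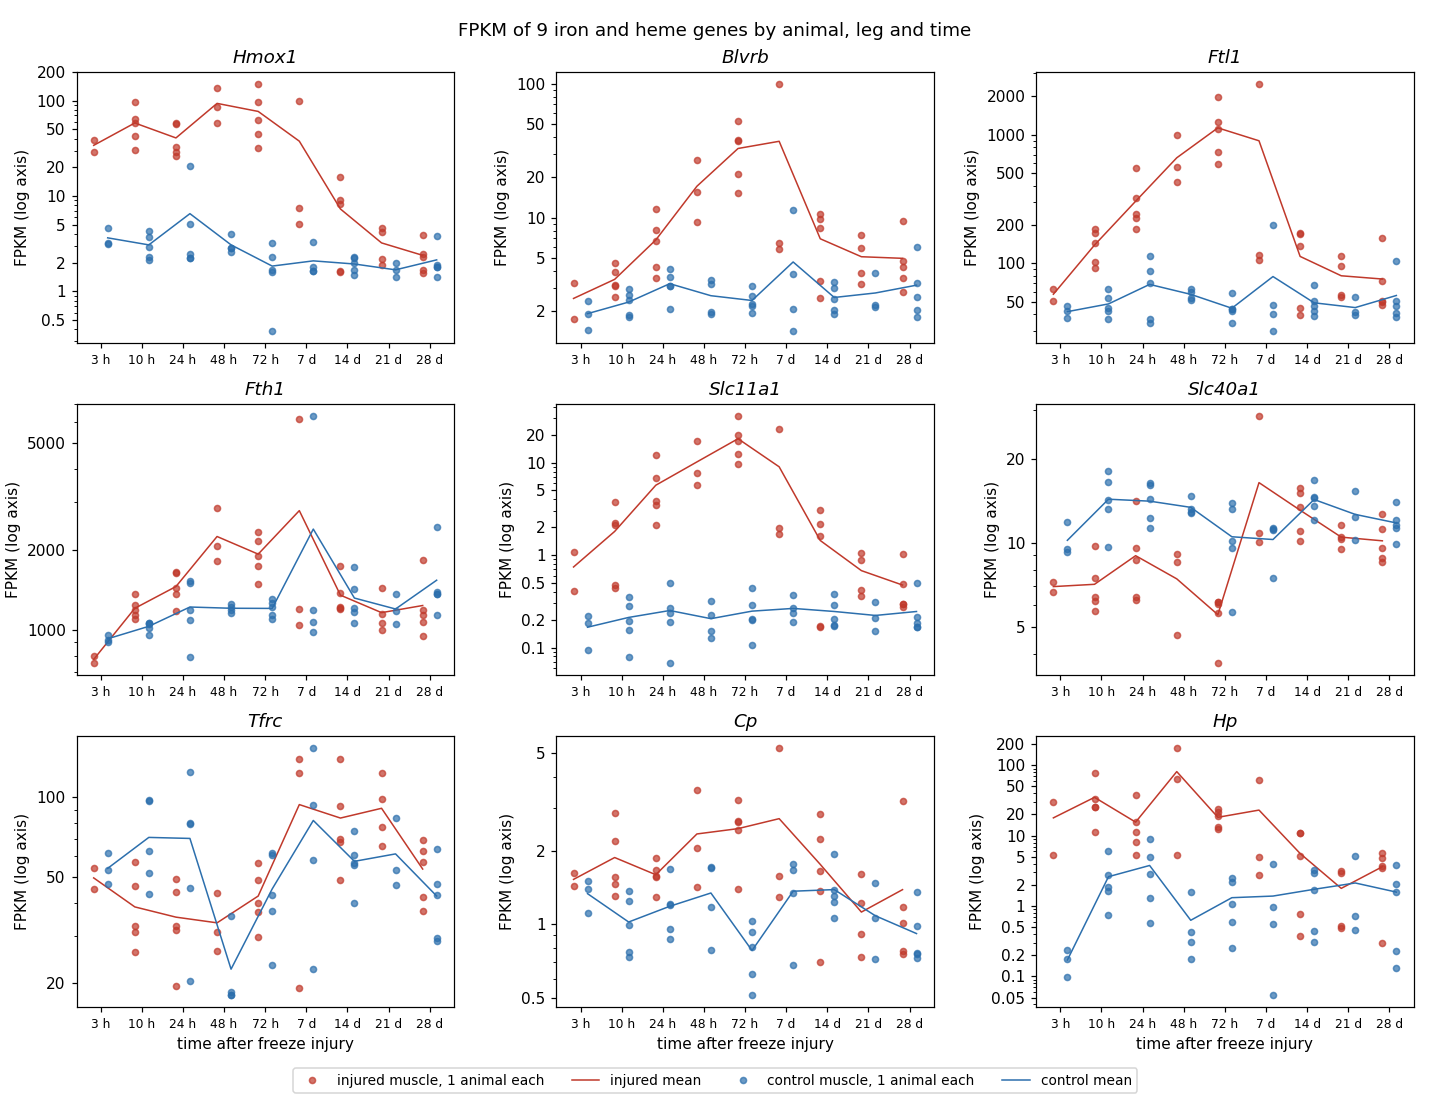
FPKM of the 9 members in each muscle (points, log axis) and group means (lines) from 3 h to 28 d, injured and control. Injured Hmox1 lies above all controls from 3 h to 7 d and Slc11a1 from 3 h to 7 d, whereas injured Slc40a1 lies below its controls at 3 h and 48 h.

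Hmox1, the heme-degrading enzyme, was higher in injured muscle at 6 consecutive times. At 3 h it was at 38.8 and 29.2 FPKM in injured muscles 11 and 12, against 3.13, 3.20 and 4.60 FPKM in controls 10, 11 and 12 (log2 difference 3.19 ± 0.76, adjusted p = 0.00861). With 2 injured muscles the call was lost without either, at an adjusted p of 0.294 without animal 11 and 0.0706 without animal 12. At 10 h injured muscles 01 to 05 held 96.6, 30.3, 63.5, 58.7 and 42.4 FPKM, against 2.95, 2.14, 3.74, 2.27 and 4.25 FPKM in controls. Every injured value was above the highest control value, and the log2 difference was 4.14 ± 0.53 (adjusted p = 7.39e-09).

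At 24 h Hmox1 averaged 40.6 ± 15.6 FPKM in injured and 6.53 ± 7.98 FPKM in control muscle (SD, n = 5 each), a log2 difference of 3.16 ± 0.53 (adjusted p = 2.18e-06). The control mean was raised by the averaged control of animal 03, at 20.6 FPKM against 2.22 to 5.08 FPKM in the other controls, and with its A libraries alone the log2 difference was 3.70. At 48 h injured muscles 01, 04 and 05 held 85.1, 137 and 58.4 FPKM, against 2.57 to 4.0 FPKM in controls (log2 difference 4.82 ± 0.64, adjusted p = 5.22e-09). At 72 h injured muscles 01 to 05 held 32.2, 61.9, 149, 97.5 and 45.0 FPKM, against 1.59, 0.384, 1.67, 3.25 and 2.31 FPKM in controls. The 72 h log2 difference of 5.35 ± 0.53 (adjusted p = 1.05e-13) was the highest of the 9 times for this gene, although quantile normalization gave 4.52 at 48 h and 4.35 at 72 h, and no injured value reached into the control range at any time from 3 h to 72 h.

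By 7 d Hmox1 differed strongly between animals. Injured muscles 02, 03 and 04 held 100.2, 7.45 and 5.11 FPKM, against 3.28, 1.63, 1.64 and 1.80 FPKM in controls 02 to 05. The log2 difference of 2.91 ± 0.64 (adjusted p = 0.000284) became 1.81 without animal 02 and was no longer called (adjusted p = 0.073). At 14 d Hmox1 was at 1.63, 1.61, 16, 9.09 and 8.23 FPKM in injured muscles 01 to 05 and at 1.49 to 2.28 FPKM in controls (log2 difference 1.36, adjusted p = 0.126), with the injured values of animals 01 and 02 inside the control range. At 21 d and 28 d it averaged 3.22 and 2.39 FPKM in injured muscle, against 1.68 and 2.14 FPKM in control muscle, and neither difference was called.

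Blvrb, the reductase of flavins and some biliverdin isomers, was called later than Hmox1. Up to 24 h its groups overlapped, with 3.56 to 11.5 FPKM in injured and 2.09 to 4.17 FPKM in control muscle at 24 h. The injured leg was the higher one in 5 of 5 animals at 10 h and at 24 h. At 24 h the log2 difference was 0.97, just under 2-fold (limma adjusted p = 0.0892, or 0.0357 with the animal as a replicate block). At 48 h injured muscles 01, 04 and 05 held 15.4, 26.8 and 9.28 FPKM, against 1.90 to 3.40 FPKM in controls (log2 difference 2.58 ± 0.55, adjusted p = 6.93e-05). At 72 h injured muscles 01 to 05 held 15.4, 37.8, 52.7, 37.3 and 21.0 FPKM, against 2.18, 3.09, 1.94, 2.26 and 2.58 FPKM in controls (log2 difference 3.60 ± 0.45, adjusted p = 2.52e-10). All injured muscles were above all controls at both times. At 7 d the injured muscles held 99.2, 5.88 and 6.44 FPKM and the control of animal 02 held 11.4 FPKM, above both other injured muscles. The call at 7 d (log2 difference 2.17, adjusted p = 0.00153) was lost without animal 02 (1.41, adjusted p = 0.0549). At 14 d the injured leg exceeded the control leg in 5 of 5 animals, and the log2 difference of 1.23 had an adjusted p of 0.102, or 0.0302 with the animal as a replicate block, and it was called without the injured muscle of animal 01 (1.43) or 02 (1.54).

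Ftl1, the ferritin light chain, was called from 10 h to 7 d, with a larger log2 difference at each time up to 72 h. At 10 h injured muscles 01 to 05 held 170.5, 92.0, 145, 183 and 102 FPKM, against 63.2, 44.8, 54.0, 36.8 and 42.9 FPKM in controls (log2 difference 1.49 ± 0.47, adjusted p = 0.017, or 0.0519 without the injured muscle of animal 04). At 24 h it averaged 304 ± 145 FPKM in injured and 68.5 ± 33.6 FPKM in control muscle (SD, n = 5 each), a log2 difference of 2.19 ± 0.47 (adjusted p = 0.000184), or 2.46 with the A libraries of animal 03 alone. At 48 h injured muscles 01, 04 and 05 held 558, 999 and 425 FPKM, against 52.0 to 63.7 FPKM in controls (log2 difference 3.43 ± 0.57, adjusted p = 1.02e-06). Injured and control muscle did not overlap at any of these times.

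At 72 h Ftl1 was at 595, 1263, 1955, 1098 and 735 FPKM in injured muscles 01 to 05, against 44.1, 34.3, 44.2, 58.8 and 42.4 FPKM in controls. The lowest injured muscle was far above the highest control, and the log2 difference was 4.55 ± 0.47 (adjusted p = 6.48e-13). At 7 d injured muscles 02, 03 and 04 held 2467, 116 and 106 FPKM, against 198, 40.2, 29.8 and 47.6 FPKM in controls 02 to 05, so that animal 02 was high in both legs. The log2 difference at 7 d was 2.42 (adjusted p = 0.000725), and it was still called without both legs of animal 02, at 1.52, but not without its injured leg alone (0.93, adjusted p = 0.297). At 14 d Ftl1 was at 39.9, 45.1, 173, 137 and 169.7 FPKM in injured muscles 01 to 05, of which animals 01 and 02 lay within the control range of 38.7 to 67.5 FPKM.

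Fth1, the ferritin heavy chain with ferroxidase activity, was the most abundant member in both legs and differed little between the legs. Its control means lay between 928 and 2386 FPKM, the highest being that of 7 d with animal 02. At 48 h injured muscles 01, 04 and 05 held 2059, 2849.6 and 1807 FPKM, against 1161, 1222, 1254 and 1192 FPKM in controls 01, 02, 04 and 05. At 72 h injured muscles 01 to 05 held 1493, 2161, 2327, 1736 and 1900.0 FPKM, against 1309, 1137, 1259, 1219 and 1104 FPKM in controls. Injured muscle lay above control muscle at both times, with log2 differences of 0.86 (adjusted p = 0.0316) and 0.66 (adjusted p = 0.0355), under the 2-fold size needed for a call. At 48 h quantile normalization gave 1.21 (adjusted p = 2.91e-07), past the size of a call, and upper quartile scaling 0.31 (adjusted p = 0.443). The 72 h difference was smaller than the 1.01 of the median gene, and with every library scaled to the same upper quartile its sign turned, to -0.26.

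The ratio of the chains was examined after the levels had been seen, because it is taken within a library and does not move when a library is scaled by a constant. The mouse genome holds processed copies of ferritin genes, and how reads that match several places were assigned is not given in the sources used here. At 72 h there were 1.92 ± 0.609 FPKM of Fth1 per FPKM of Ftl1 in injured muscle and 27.6 ± 4.64 in control muscle (SD, n = 5 each). The ratio was 9.46 ± 3.28 in injured and 22.0 ± 3.84 in control muscle at 10 h, and 5.46 ± 1.98 and 20.3 ± 6.97 at 24 h (n = 5 each). The ratio of the geometric means, injured over control, was 0.267 at 24 h and 0.222 with the A libraries of animal 03 alone, and 0.219 at 7 d and 0.361 without animal 02. At each of 10 h, 24 h and 72 h injured muscle held less heavy chain message per light chain message, with no overlap and an exact 2-sided permutation p of 0.00794 on the log2 ratio, the smallest that 5 against 5 allows (0.0179 adjusted over 9 times). This test shuffled muscles freely, without keeping the legs of an animal together, and no paired test of the ratio was run. At 28 d the ratio was 11.7 to 22.5 in injured and 23.1 to 34.1 in control muscle, again without overlap and with the same p. At 3 h, 48 h, 7 d and 21 d all injured ratios were also below all control ratios, but the number of animals allowed no p under 0.2 at 3 h and 0.0571 at the other times, and at 14 d the ranges of 7.01 to 34.4 in injured and 24.9 to 28.3 in control muscle overlapped (exact permutation p = 0.143).

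**Figure D2:**
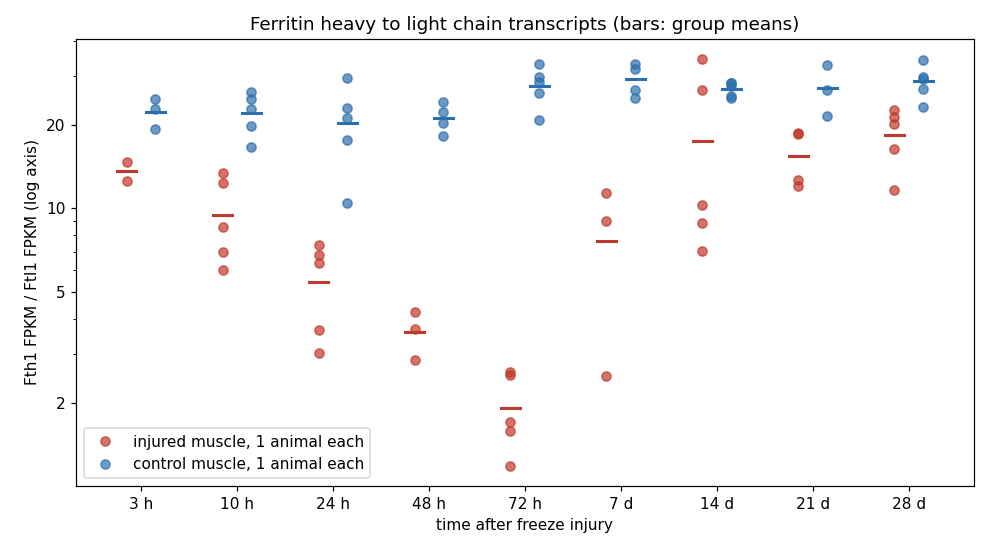
Ratio of Fth1 to Ftl1 FPKM in each muscle (points, log axis) with group means (short bars), injured and control, from 3 h to 28 d. The injured mean is lowest at 72 h, 1.92 against 27.6 in control muscle, and the ratios overlap between legs only at 14 d.

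Slc11a1, the phagosomal metal transporter, had a 72 h difference close to that of Hmox1, larger with the pseudocount of 0.1 and smaller with a pseudocount of 1 (3.84 for Slc11a1 and 4.67 for Hmox1). Its control means lay between 0.166 and 0.265 FPKM over the 9 times. At 10 h injured muscles 01 to 05 held 2.13, 0.477, 2.24, 3.73 and 0.437 FPKM, against 0.154, 0.351, 0.278, 0.195 and 0.0796 FPKM in controls (log2 difference 2.28 ± 0.54, adjusted p = 0.000951). At 24 h it averaged 5.69 ± 4.01 FPKM in injured and 0.251 ± 0.157 FPKM in control muscle (SD, n = 5 each) (log2 difference 3.90 ± 0.54, adjusted p = 2.4e-08, and 4.12 with the A libraries of animal 03 alone). Injured and control muscle were separate at both times.

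At 48 h injured muscles 01, 04 and 05 held 7.67, 17.1 and 5.74 FPKM, against 0.126 to 0.321 FPKM in controls (log2 difference 4.96 ± 0.65, adjusted p = 3.57e-09). At 72 h injured muscles 01 to 05 held 9.64, 17, 31.8, 19.7 and 12.5 FPKM, against 0.205, 0.198, 0.106, 0.441 and 0.288 FPKM in controls (log2 difference 5.67 ± 0.54, adjusted p = 2.26e-14). The lowest injured muscle was far above the highest control at 48 h and 72 h. At 7 d injured muscles 02, 03 and 04 held 23.3, 1.98 and 1.70 FPKM, against 0.190 to 0.366 FPKM in controls, with a log2 difference of 3.63 ± 0.65 (adjusted p = 1.43e-05) and of 2.55, still called, without animal 02. At 14 d injured muscles 01 to 05 held 0.167, 0.169, 3.09, 2.17 and 1.59 FPKM, against 0.171 to 0.383 FPKM in controls, and the log2 difference of 1.53 had an adjusted p of 0.0845, or 0.0312 with the animal as a replicate block, and it was called without the injured muscle of animal 01 or 02 (adjusted p = 0.0133 and 0.00967). At 28 d the injured leg was still the higher one in 5 of 5 animals, at 0.277 to 1.01 FPKM in injured and 0.165 to 0.496 FPKM in control muscle, and the difference was not called.

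Slc40a1, the iron exporter, had less message in injured than in control muscle from 10 h to 72 h, by a difference that passed the adjusted p but stayed under 2-fold. At 10 h injured muscles 01 to 05 held 5.69, 9.74, 6.37, 7.47 and 6.19 FPKM, against 14.2, 9.63, 18.1, 16.5 and 13.2 FPKM in controls. Only the injured muscle of animal 02 reached the control range, and the log2 difference was -1.0 ± 0.21 (adjusted p = 0.000279). At 24 h it averaged 8.99 ± 3.22 FPKM in injured and 14.1 ± 2.28 FPKM in control muscle (SD, n = 5 each) (log2 difference -0.70 ± 0.21, adjusted p = 0.00809, and -0.64, adjusted p = 0.0123, with the A libraries of animal 03 alone). At 48 h injured muscles 01, 04 and 05 held 8.52, 4.65 and 9.09 FPKM, all below the 12.8 to 14.7 FPKM of the 4 controls (log2 difference -0.90 ± 0.26, adjusted p = 0.00264).

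At 72 h Slc40a1 was at 6.05, 6.11, 3.70, 5.59 and 6.13 FPKM in injured muscles 01 to 05, against 9.61, 5.64, 13.9, 10.1 and 13.2 FPKM in controls. The control of animal 02, at 5.64 FPKM, overlapped the injured values, and the log2 difference was -0.87 ± 0.21 (adjusted p = 0.000242). For 10, 48 and 72 h quantile normalization gave differences of -1.32, -1.67 and -2.03 and upper quartile scaling gave -1.25, -1.44 and -1.78, all past the size of a call. Without 1 muscle it also passed that size, at 10 h (control 02 or 05, or injured 02 or 04), 48 h (injured 01 or 05) and 72 h (control 02), with -1.13, -1.08 and -1.08 as the widest. It missed the adjusted p at 24 h without injured 05 (-0.58, adjusted p = 0.0511) and at 48 h without injured 04 (-0.60, adjusted p = 0.0924). At 7 d Slc40a1 was at 28.5, 10.8 and 10.0 FPKM in injured muscles 02, 03 and 04, against 7.48, 11.2, 11.1 and 11.3 FPKM in controls 02 to 05, so that animal 02 was the highest injured and the lowest control muscle. From 14 d on injured and control muscle overlapped, at 10.1 to 15.7 and 12.1 to 16.8 FPKM at 14 d and 8.53 to 12.7 and 9.89 to 14.0 FPKM at 28 d.

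Cp, the ferroxidase that works with ferroportin, was expressed at low levels. At 72 h injured muscles 01 to 05 held 1.40, 2.61, 2.42, 2.64 and 3.24 FPKM, against 0.926, 0.625, 0.514, 0.806 and 1.03 FPKM in controls. The lowest injured value was above the highest control value, and the log2 difference was 1.53 ± 0.31 (adjusted p = 1.61e-05). This direction depended on the scaling, since quantile normalization gave -0.19 and upper quartile scaling gave 0.68. At the other 8 times Cp was not called, with 1.30 to 2.85 FPKM in injured and 0.733 to 1.37 FPKM in control muscle at 10 h.

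The deposited isoform table split Cp into 3 isoform rows with the same start and different ends, and the other members except Fth1 into 1. The isoform that ended first (chr3:19857054-19892998) held a mean of 57.8% of Cp FPKM in injured and 37.6% in control muscle at 72 h, and 60.7% and 43.9% at 24 h. The longest one (chr3:19857054-19909750) held 30.2% in injured and 52.5% in control muscle at 72 h. These shares are estimates for a gene near 1 FPKM and were not tested.

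Tfrc, the uptake receptor, was not called at any time. At 10 h injured muscles 01 to 05 held 57.1, 46.3, 26.2, 32.9 and 31.1 FPKM, against 97.9, 97.3, 52.2, 43.5 and 62.6 FPKM in controls, so the ranges overlapped while the injured leg was the lower one in 5 of 5 animals (ratios of the legs 0.476 to 0.757). The log2 difference was -0.85 ± 0.39 (adjusted p = 0.116), and -0.81 ± 0.39 at 24 h (adjusted p = 0.096), where the injured leg was again lower in 5 of 5 animals and the difference was called without the control of animal 01 (-1.20, adjusted p = 0.0135). With the A libraries of animal 03 alone it was -0.84 (adjusted p = 0.0957). With the animal as a replicate block the adjusted p was 0.0421 at 10 h and 0.0369 at 24 h, for the same differences under 2-fold. With upper quartile scaling they were -1.10 (adjusted p = 0.0416) and -1.06 (adjusted p = 0.0373), past the size of a call.

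Tfrc varied widely between animals. At 24 h the controls held 20.4, 45.7, 79.5, 125 and 79.9 FPKM in animals 01 to 05, and at 7 d 22.6, 93.4, 153 and 58.4 FPKM in animals 02 to 05, against 19.2, 123 and 139 FPKM in injured muscles 02 to 04. At 48 h the injured leg was the higher one in 3 of 3 animals (ratios 1.46 to 2.36), at 72 h in 2 of 5, at 14 d in 4 of 5, at 21 d in 3 of 3 and at 28 d in 5 of 5 (ratios 1.08 to 1.43). The limma log2 difference was 0.61 at 48 h (adjusted p = 0.272) and 0.36 at 28 d (adjusted p = 1), and neither was called. For Slc40a1 the injured leg was the lower one in 4 of 5 animals at 10 h, 5 of 5 at 24 h, 3 of 3 at 48 h and 4 of 5 at 72 h.

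**Figure D3:**
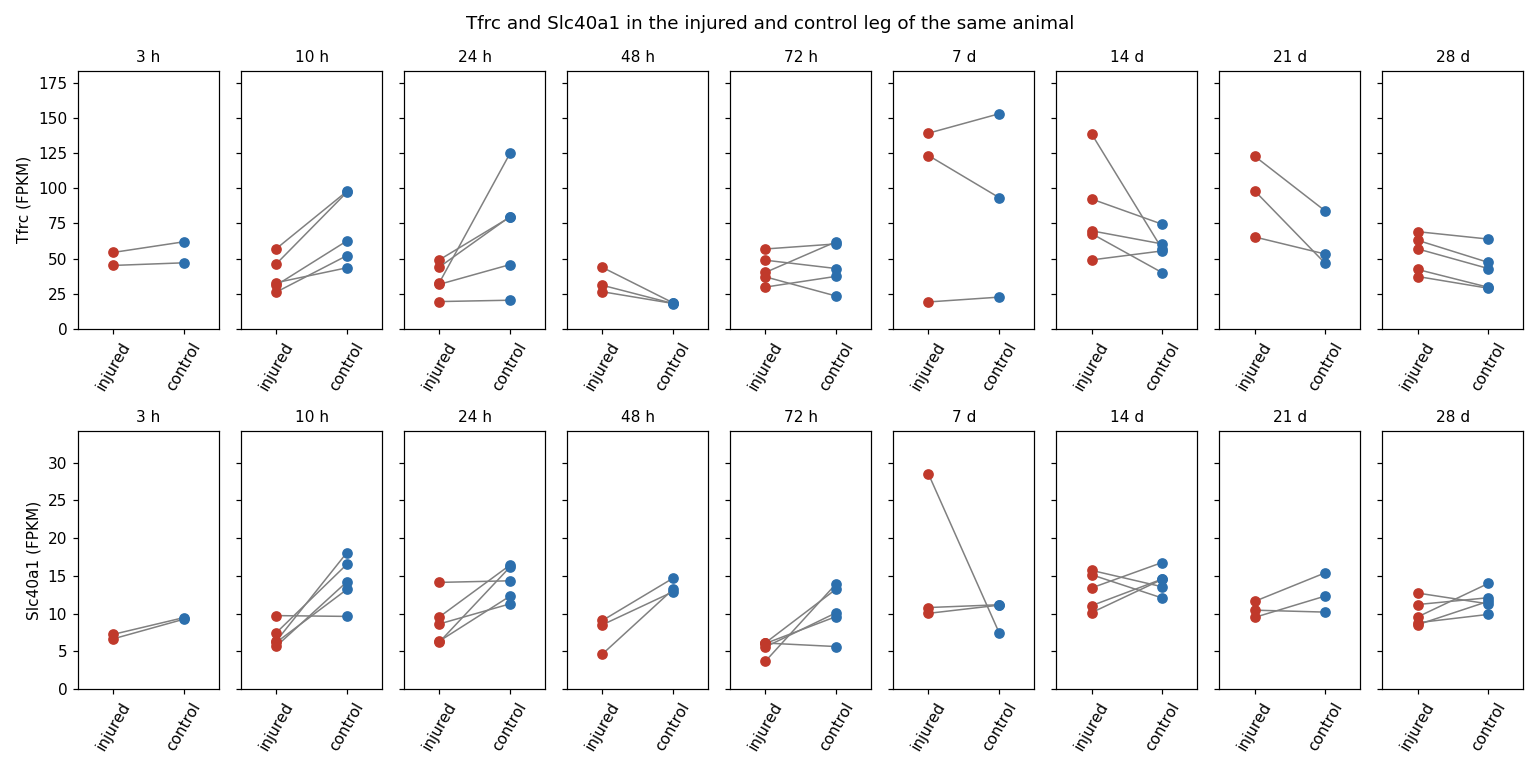
Tfrc and Slc40a1 in each animal with both legs, as FPKM in the injured (left) and control (right) leg joined by a line, in panels from 3 h to 28 d. Every Tfrc line runs upward from the injured to the control leg at 10 h and 24 h and downward at 48 h, 21 d and 28 d.

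No member was called lower by limma at any time, when 0.0579%, 0.438%, 0.661%, 1.56%, 0.612%, 1.95%, 0.0331%, 0% and 0.0331% of all genes were from 3 h to 28 d. At an unadjusted p under 0.05, 2 members were lower at 10 h and at 24 h (Slc40a1 and Tfrc) and 1 at 48 h and at 72 h (Slc40a1), and the exact permutation test gave 2, 1, 0 and 1 at these times and 0 at all others. At 3 h, 48 h, 7 d and 21 d the number of animals allowed no exact p under 0.05, so 0 was the only possible count. No member was called higher at 14 d, 21 d or 28 d, when 2.89%, 0.00827% and 0.0496% of all genes were. At an unadjusted p under 0.05 there were 4 higher members at 14 d and 0 at 21 d and 28 d. The exact test gave 1, 0 and 0, of which the 0 at 21 d was again fixed by the number of animals. No share of all genes at an unadjusted p under 0.05 or by the exact test is given here. The unadjusted and exact counts, higher or lower, thus lack a background at a like threshold. With the animal as a replicate block 2 members were called at 14 d, Blvrb and Slc11a1. Every injured muscle lay above every control for 4, 5, 3, 6, 7, 2, 0, 1 and 0 members from 3 h to 28 d, when 11.4%, 24.2%, 21.1%, 60.4%, 57.0%, 23.2%, 2.14%, 6.33% and 1.07% of all genes did, and below every control for 2 members at 3 h (Fth1 and Slc40a1) and 1 at 48 h (Slc40a1), when 50.7% and 10.2% did. The median log2 difference of the members was 0.32, 0.80, 0.97, 2.58, 3.60, 2.17, 0.95, 0.57 and 0.37 from 3 h to 28 d, beside the medians of all genes given above.

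**Figure D4:**
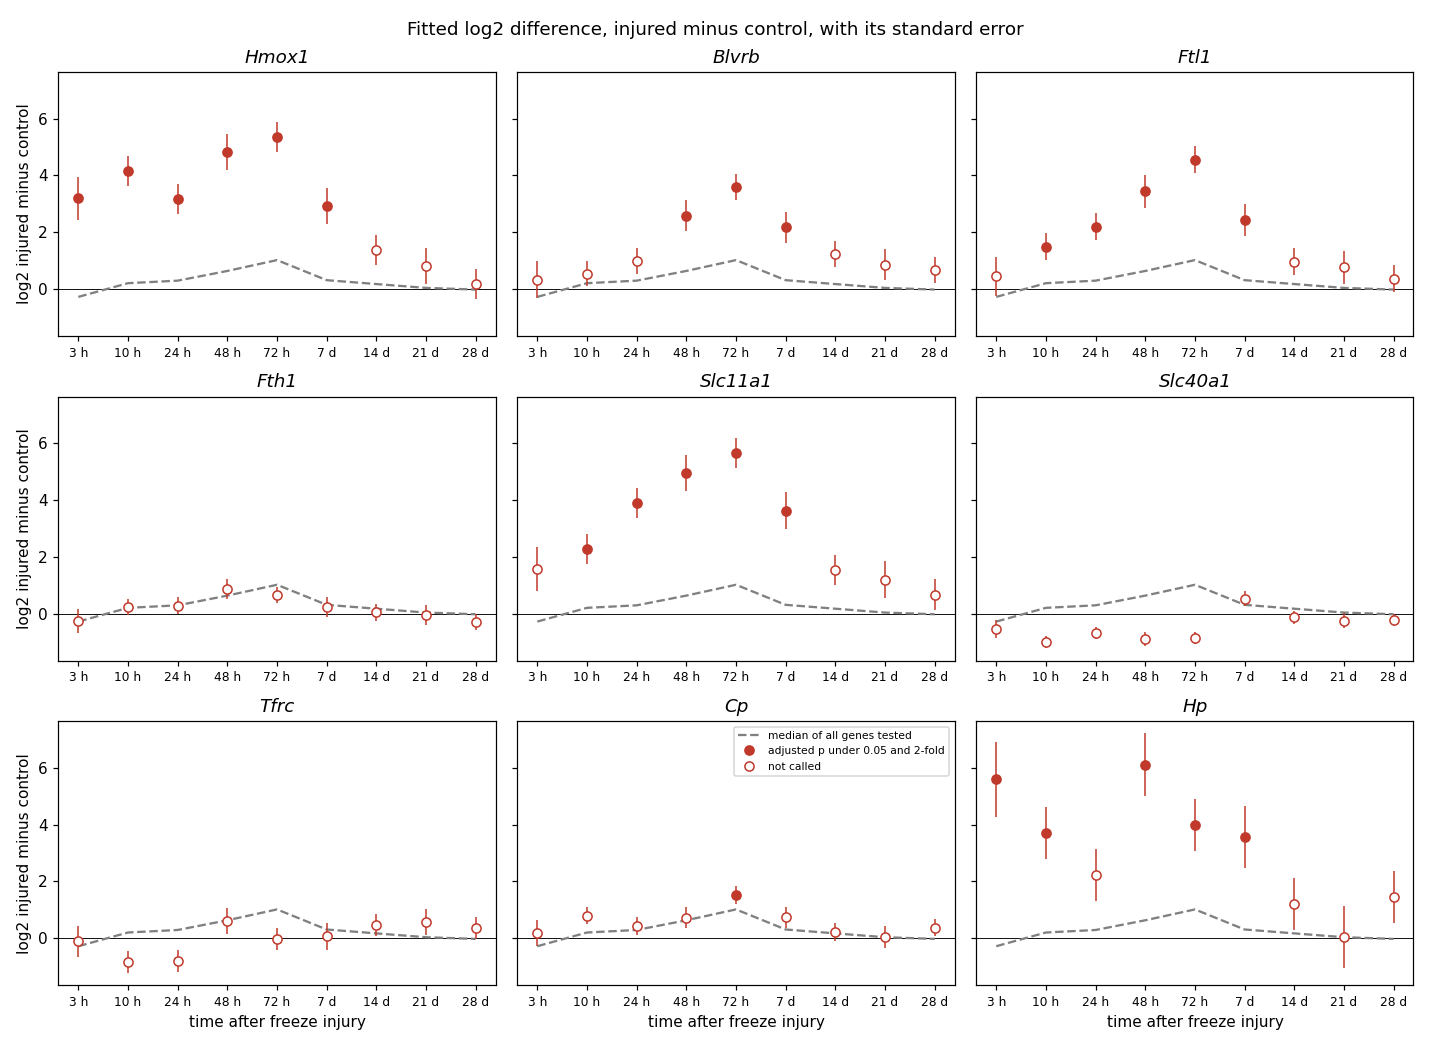
Log2 difference of each member on the log2(FPKM + 0.1) scale, injured minus control, with its SE (bars), at the 9 times, and the median over all genes tested. Hmox1 and Slc11a1 reach 5.35 and 5.67 at 72 h, where the median gene is at 1.01, and Slc40a1 lies below 0 from 3 h to 72 h.

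Between neighbouring times, the difference of the legs was compared in 8 steps for each of the 9 members, and 4 of these 72 comparisons passed an adjusted p under 0.05, all at the step from 72 h to 7 d, where the median gene moved by -0.78. The difference fell by 2.44 on the log2 scale for Hmox1 (SE 0.83, adjusted p = 0.0178), by 2.13 for Ftl1 (adjusted p = 0.0206) and by 2.04 for Slc11a1 (adjusted p = 0.0459, lost with quantile normalization at -1.53, adjusted p = 0.103), when 40.0% of all genes had a lower and 1.12% a higher difference at this step. Slc40a1 went the other way, with a change of 1.40 (SE 0.34, adjusted p = 0.00179). Without animal 02 the changes were -3.54 for Hmox1, -3.03 for Ftl1, -3.11 for Slc11a1 and 0.77 for Slc40a1 (adjusted p = 0.0481), and 5 members had a lower difference. With the animal as a replicate block the change of -1.42 for Blvrb also passed (adjusted p = 0.047, against 0.095 without the block). No member passed at the other 7 steps by limma, where the share of all genes that passed upward was 0.760%, 0.215%, 0.752% and 1.60% for the steps ending at 10, 24, 48 and 72 h and 0% for those ending at 14, 21 and 28 d. The share that passed downward was 0.0496%, 0.107%, 0.0165%, 0.132%, 0.314%, 0% and 0% for the same steps. At an unadjusted p under 0.05 these steps held 5 higher members, 1 at 24 h and 4 at 48 h, and 1 lower member at 14 d, and no exact test was run on steps. No share of all genes at an unadjusted p under 0.05 is given for these steps or for the control leg. In the control leg, early times (3, 10 and 24 h) minus late times (14, 21 and 28 d) gave log2 differences between -0.34 and 0.90 for the 9 members. None was called by limma, 1 had an unadjusted p under 0.05, and 0.628% of all genes were called higher and 0.0744% lower.

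From 10 h to 7 d, the times when Hmox1, Ftl1 and Slc11a1 were all called, at least 5 of 10 macrophage markers were called higher too. Summed over 10 genes, the 10 h muscles ranged over 12.7 to 75.6 FPKM when injured and 2.42 to 10.7 FPKM in controls, the 24 h muscles over 67.2 to 369 and 6.29 to 26.5 FPKM, the 48 h muscles over 245 to 720.3 and 4.70 to 14.6 FPKM, and the 72 h muscles over 426 to 1812 and 5.21 to 23.0 FPKM. Of the 10 genes, 1, 5, 10, 10, 10, 10, 4, 0 and 0 were called higher from 3 h to 28 d, and 7 of 10 at 7 d without animal 02. Over all genes tested the shares called higher were 1.69%, 11.8%, 17.6%, 33.1%, 50.2%, 21.6%, 2.89%, 0.00827% and 0.0496% at these times. Without animal 02 it was 1045 of 12099 genes at 7 d. None of the 10 markers was at 0 in an injured muscle, and among 39 control muscles Msr1 was at 0 in 1 and Cx3cr1 in 2. Their part in the levels of Hmox1, Blvrb, Ftl1 and Slc11a1 was not tested. The hemoglobin genes Hbb-b1 and Hbb-b2 were not called at any time, and the sum over 6 red cell genes was 89.0 to 274 FPKM in injured and 80.3 to 326 FPKM in control muscle at 72 h. The median log2 difference of the 2 red cell genes tested was 1.57, 1.03, 0.30, -0.25, 0.13, 0.76, 0.04, 0.91 and 0.09 from 3 h to 28 d.

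The muscles with the highest macrophage sums differed in Slc40a1. The injured muscle of animal 02 at 7 d had a sum of 1801 FPKM and that of animal 03 at 72 h had 1812 FPKM. Slc40a1 was at 28.5 FPKM in the first and 3.70 FPKM in the second, and Spic, a transcription factor of iron-recycling macrophages, was at 11.6 and 2.45 FPKM. Trf, transferrin, was at 66.7 and 31.1 FPKM, and Cd163, the receptor for haptoglobin bound to hemoglobin, at 1.66 and 2.83 FPKM. These are 1 muscle each, chosen after their values were seen, and the red cell sum of the 7 d animal was also high, at 1869 FPKM in injured and 995.5 FPKM in control muscle. Over all genes the 7 d injured library summed to 828110 FPKM and the 72 h library to 435151 FPKM. Acta1 was listed at 0 in the first and at 5464 FPKM in the second. These levels were not rescaled to a common total.

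**Figure D5:**
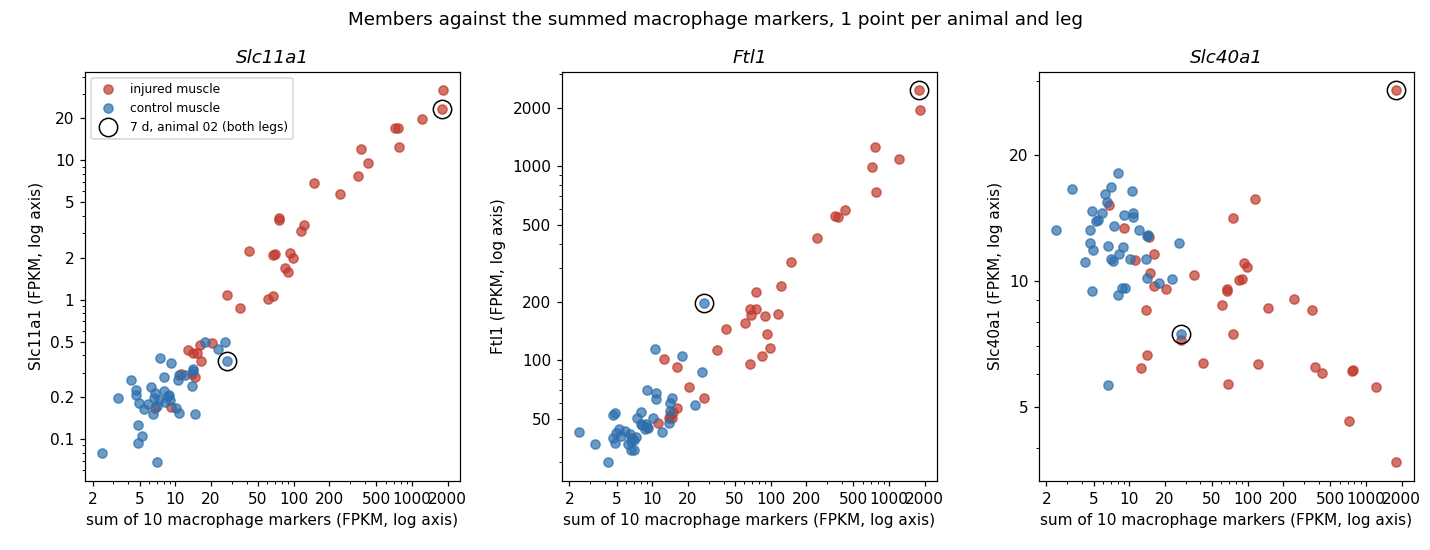
Slc11a1, Ftl1 and Slc40a1 FPKM of each muscle (log axis) against the summed FPKM of 10 macrophage markers (log axis), injured and control, with animal 02 at 7 d circled. Slc11a1 and Ftl1 are high where the sum is high, while Slc40a1 is at 28.5 FPKM in the circled injured muscle and 3.70 FPKM in the 72 h muscle with a similar sum. Over all genes the circled injured library sums to 828110 FPKM and that 72 h library to 435151 FPKM.

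The counts of the pathway lists from 10 h to 7 d are to be read against the 11.8%, 17.6%, 33.1%, 50.2% and 21.6% of all genes called higher at these times. Among the other genes of heme scavenging and breakdown, 10 were listed, 7 were tested, and 0, 2, 1, 4, 5, 1, 0, 0 and 0 were called higher from 3 h to 28 d, with 0 called lower. Cd163 averaged 2.59 ± 0.739 FPKM in injured and 0.305 ± 0.125 FPKM in control muscle at 72 h (log2 difference 2.76 ± 0.39, adjusted p = 5e-09). Lrp1, which takes up heme bound to hemopexin, averaged 11.6 ± 5.19 FPKM in injured and 0.621 ± 0.236 FPKM in control muscle at 72 h (log2 difference 4.0 ± 0.43, adjusted p = 1.29e-12). Both were called from 10 h on, Lrp1 at 10, 24, 48 and 72 h and Cd163 at 10, 48 and 72 h. Blvra, the main biliverdin reductase, and Hmox2, the constitutive heme oxygenase, had log2 differences of 1.78 and 1.35 at 72 h. The heme importer Slc46a1 was called at 48 h, 72 h and 7 d (2.16 at 72 h), but its sign turned under quantile normalization, to -0.51 at 48 h and -0.08 at 72 h. Without animal 02 the 7 d call of Slc46a1 was lost (0.82, adjusted p = 0.202), which left 0 of the 7 called at 7 d. Under quantile normalization 2 of the 7 were called higher at 72 h. Hpx, hemopexin, did not exceed 0.345 FPKM, and Flvcr1 and Flvcr2 were not analysed here.

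Of 17 listed genes of iron uptake and transport, 13 were tested, and 0, 5, 3, 8, 10, 2, 0, 0 and 0 were called higher, with 0 called lower. Steap1, of the STEAP family of metalloreductases, averaged 4.68 ± 2.51 FPKM in injured and 0.0526 ± 0.0669 FPKM in control muscle at 72 h (log2 difference 4.91 ± 0.37, adjusted p = 5.07e-18) and was called at every time from 10 h to 7 d. Lcn2, which binds bacterial siderophores, averaged 97.2 ± 103 FPKM in injured and 7.03 ± 6.82 FPKM in control muscle at 10 h (log2 difference 3.41 ± 0.70, adjusted p = 0.000156). Slc39a14, a transporter of iron not bound to transferrin, averaged 16 ± 10.7 FPKM in injured and 2.32 ± 0.972 FPKM in control muscle at 10 h (log2 difference 2.56 ± 0.50, adjusted p = 6.9e-05). Lcn2 and Slc39a14 were called from 10 h to 72 h. Trf was called at 48 h, 72 h and 7 d, with a log2 difference of 3.40 ± 0.52 at 72 h, and Ncoa4, the ferritin cargo receptor of autophagy, had 1.28 at 72 h, near the median gene. Without animal 02 the 7 d calls of Steap1 (1.15, adjusted p = 0.14) and Trf (1.08, adjusted p = 0.347) were both lost. Quantile normalization left 2 of the 13 called higher at 72 h and upper quartile scaling 4, and under the first Slc11a2 and Steap3 changed sign.

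Of 10 listed genes of iron sensing and the hepcidin axis, 7 were tested, and 1 was called higher and 1 lower at 48 h and 2 higher at 72 h. Aco1, which encodes iron regulatory protein 1, had log2 differences of 1.06 at 48 h and 1.54 at 72 h, and Hfe had 1.36 at 72 h. Hfe2, hemojuvelin, a gene of muscle and liver, averaged 125 ± 29.3 FPKM in injured and 260.3 ± 18.6 FPKM in control muscle at 48 h (log2 difference -1.09 ± 0.26, adjusted p = 0.000357). At 72 h quantile normalization gave 0 higher and 3 lower, and upper quartile scaling 0 higher and 1 lower. Of 9 genes of heme synthesis, all tested, Ppox was called at 72 h (1.10), a sign that also turned under quantile normalization (-0.22).

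Of 10 listed regulators and NRF2 targets, 9 were tested, and 0, 5, 2, 6, 7, 1, 0, 0 and 0 were called higher. Srxn1, sulfiredoxin, averaged 161 ± 70.9 FPKM in injured and 13.2 ± 3.81 FPKM in control muscle at 10 h (log2 difference 3.47 ± 0.40, adjusted p = 2.99e-10). Nfe2l2, which encodes NRF2, had log2 differences of 1.36 at 10 h and 2.04 at 72 h, and Bach1, the heme-sensing repressor of Hmox1, had 1.08 and 1.63. Spic averaged 1.60 ± 1.14 FPKM in injured and 0.00909 ± 0.0203 FPKM in control muscle at 72 h (log2 difference 3.69 ± 0.47, a size that depends on the pseudocount with controls so near 0), and its log2 difference was 3.72 at 7 d, or 2.25 without animal 02 (adjusted p = 0.00264). Nqo1 was called higher at 48 h (1.34) and lower at 7 d (-1.16, adjusted p = 0.000531), the only gene of this list called lower, a call lost without animal 02 (-0.73, adjusted p = 0.117). Quantile normalization left 2 of the 9 called higher at 72 h and turned the sign of Gclm and Gclc, enzymes of glutathione synthesis.

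Over the 18 group means of log2(FPKM + 0.1), the genes whose pattern was most like each member were named, as a description of groups that share libraries and cell content. For Hmox1 they were Sh3bp2 (Pearson's r = 0.986), Il4ra and Csf2rb, for Blvrb Gpx1 (0.993), C1qa and Pafah1b3, for Ftl1 Serp1 (0.995), Ikzf1 and Emp3, and for Slc11a1 Lcp2 (0.998) and Ptprc. For Cp they were Sulf1 (0.972), Cnn3 and Lima1, for Hp Ces2d-ps (0.934), Timp1 and Myd88, and for Fth1 Taf10 (0.961), Gemin2 and Fdx1l. Tfrc and Slc40a1 had the weakest nearest patterns, Coq7 (0.880), Sdhd and Lrrc48 for Tfrc, and Lrrc30 (0.829), Prdx3 and Dusp28 for Slc40a1. Among the members themselves r was 0.98 between Ftl1 and Slc11a1 and -0.74 between Hmox1 and Slc40a1.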

How the data were processed

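RNA-seq of injured and control TA muscle was analysed from the deposited gene table, whose FPKM values the authors made with TopHat, Cufflinks, Cuffmerge and Cuffdiff on the mm9 genome from strand-specific libraries of polyadenylated RNA. How Cuffdiff scaled the libraries, and the read totals, are not given in the sources used here; low FPKM values step by whole reads and gave relative depths for 77 libraries of 0.674 to 1.75 times 1 control library of 10 h. The table had 80 columns (39 injured, 41 control) for 92 labelled samples, all matched to a label (0 without a sample), and 12 labelled samples (6 injured and 6 control) were not analysed here. An incomplete injured library of animal 05 at 7 d (334 genes above 0) and 1 control library of unstated time were left out, and at 24 h the repeat libraries of animal 03 were averaged within each leg, leaving 37 injured and 39 control muscles.

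Genes whose mean reached 1 FPKM in any group were fitted on log2(FPKM + 0.1), a scale that understates the change of low genes, with limma 3.58.1 (lmFit, eBayes with trend) in R 4.3.3, in 18 groups with 58 residual degrees of freedom. P-values were adjusted by the Benjamini-Hochberg method over all 12099 genes at a time, and a call needed an adjusted p below 0.05 and a difference of 2-fold or more. Errors of log2 differences are SE. Exact 2-sided permutation tests used SciPy 1.17.1 and shuffled muscles between the groups without keeping the legs of an animal together. The method was tested on simulated data. Rows of genes with 1 symbol at several loci (764) were not tested as list members. The alternatives were pseudocounts, filters on low values, quantile and upper quartile scaling, library weights, a replicate block, all controls as comparator, each time alone, the exact test and leaving out each replicate. The 2 on the A libraries of animal 03 and on animal 02 at 7 d were chosen after seeing the data.

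Legs of 1 animal are paired by design. Over 36 animals with both legs the correlation of their deviations from the group means was -0.295 to 0.676 (median 0.143, above 0 in 28), and limma estimated a block correlation of 0.214. The reported limma p-values rest on a spread per gene pooled over the 18 groups, with the legs of an animal taken as independent. They thus do not measure the spread between animals at a single time. With each time fitted alone, the 7 d limma adjusted p was 0.162 for Hmox1, 0.313 for Blvrb and 0.297 for Ftl1. It was 0.0926 for Slc11a1 and 0.197 for Hp.

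Genes named were the 9 members, genes of pathway lists (by counts, with values for called genes of known role) and the 3 genes of highest correlation with each member, of which 1 is not reported here. The members and lists were chosen with earlier results of these data known. Iron-responsive elements were found in the mm9 genome with GENCODE transcripts. Deposited isoform FPKM were used for shares.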

Additional observations from a re-analysis of the deposited data

Results flagged for a closer look

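Among 117 sets of values examined (9 genes in 13 groups of 4 or 5 muscles), 14 held a muscle far from the others (Dixon's test). Chance gives such a value in about 1 set of 20 only where sets are independent and normally spread. These sets were of FPKM without logs, and the 9 genes share libraries, so the 14 cannot be set against that rate. Of the 14, 4 belonged to animal 02 at 7 d, in its control muscle, where Hmox1 was at 3.28 FPKM, Fth1 at 6303 FPKM and Ftl1 at 198 FPKM, above the others, and Slc40a1 at 7.48 FPKM, below them. At 28 d 7 belonged to animal 05. In its injured muscle Fth1 was at 1826 FPKM, Ftl1 at 156 FPKM and Cp at 3.21 FPKM, and in its control muscle Hmox1 was at 3.78 FPKM, Fth1 at 2425 FPKM, Ftl1 at 105 FPKM and Slc11a1 at 0.496 FPKM. Over all genes the 28 d control library of animal 05 summed to 523947 FPKM, against 376389 to 397094 FPKM in the other controls of that time. Its injured library summed to 491302 FPKM, against 363936 to 415847 FPKM in the other injured muscles. The other flagged values were Hmox1 at 20.6 FPKM in the control of animal 03 at 24 h, Tfrc at 35.6 FPKM in the control of animal 02 at 48 h and Slc40a1 at 3.70 FPKM in the injured muscle of animal 03 at 72 h.

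The difference between the legs changed between 72 h and 7 d for 4 members, by -2.44 for Hmox1, -2.13 for Ftl1, -2.04 for Slc11a1 and 1.40 for Slc40a1 on the log2 scale, each past an adjusted p of 0.05 in limma. At this step 40.0% of all genes had a lower and 1.12% a higher difference, and the median gene moved by -0.78. With quantile normalization the change of Slc11a1 was -1.53 and no longer passed (limma adjusted p = 0.103).

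In the incomplete injured library of animal 05 at 7 d, which entered no comparison, Slc40a1 was listed at 40.6 FPKM and Slc11a1 at 13.8 FPKM, against at most 11.3 and 0.366 FPKM in the 7 d controls. Its few listed genes make these values not comparable in level with those of the other libraries.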

How the results depend on the processing

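For the 40 member differences followed, 422 values were computed under the alternatives other than leaving out single replicates, of which 372 kept direction and side of the threshold, 24 lost the call, 24 gained one and 2 reversed (Fth1 at 72 h, -0.26 with upper quartile scaling, and Cp at 72 h, -0.19 with quantile normalization). Leaving out 1 replicate gave 314 values, of which 289 kept both, 9 lost and 16 gained a call and 0 reversed. Members called lower became 1 at 10 h with a pseudocount of 0.01, quantile normalization or library weights and 2 with upper quartile scaling, 1 at 24 h with upper quartile scaling, 1 at 48 h with either scaling, and 1 at 72 h with either scaling, library weights or all controls as comparator. Members called higher became 5 at 24 h with all controls, 4 with the block or with the A libraries of animal 03 alone, 6 at 48 h with quantile normalization, 5 at 72 h with either scaling, 0 at 7 d with each time alone and 2 without animal 02, 2 at 14 d with the replicate block, 5 with library weights and 3 with all controls, and 1 at 21 d with library weights, and 5 had a lower difference at 7 d than at 72 h without animal 02. Leaving out animal 02 of 7 d also changed counts at other times, which share the estimate of spread, to 4 at 24 h and 2 at 14 d. The block changed the calls of Hp at 24 h, Blvrb and Slc11a1 at 14 d and the 7 d step of Blvrb, and no other member's. Without 1 replicate, members called higher ranged from 0 to 2 at 3 h, 3 to 4 at 10 h, 3 to 5 at 24 h, 5 to 7 at 48 h, 6 to 6 at 72 h, 1 to 6 at 7 d and 0 to 3 at 14 d, and members called lower from 0 to 1 at 10 h, 24 h, 48 h and 72 h. The split over all genes moved with scaling. Higher against lower calls were 6078 and 74 at 72 h, 2121 and 2419 with quantile normalization and 3192 and 1201 with upper quartile scaling. In the same order they were 4007 and 189, 1673 and 1689, and 2322 and 901 at 48 h, 2612 and 236, 1301 and 1039, and 2091 and 531 at 7 d, 2131 and 80, 1076 and 677, and 1667 and 185 at 24 h, and 1425 and 53, 815 and 254, and 1095 and 135 at 10 h. Over the same alternatives, genes called higher ranged, with the count of the reported fit in parentheses, from 131 to 582 (204) at 3 h, 703 to 1814 (1425) at 10 h, 1041 to 2363 (2131) at 24 h, 1673 to 4918 (4007) at 48 h, 2121 to 7310 (6078) at 72 h, 95 to 3308 (2612) at 7 d, 0 to 1986 (350) at 14 d, 0 to 396 (1) at 21 d and 1 to 74 (6) at 28 d, and the replicate block gave 746 at 14 d. These counts are not over equal numbers of genes. The alternatives tested 7848 to 19956 genes, and the highest counts at 72 h and 7 d came from 19956 genes, against 12099 in the reported fit. The exact permutation test could not pass 0.05 with the animals at 3 h, 48 h, 7 d and 21 d. The ratio of Fth1 to Ftl1 at 14 d reached an exact permutation p of 0.0476 without the injured muscle of animal 01, and Fth1 at 48 h reached 1.01 without that of animal 05. Causes of these changes were not tested.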
